A study of Mus musculus with 6 samples.

Results

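Runx1 was called at 5422 regions in sham-injured, day 14 and day 56 lung fibroblasts alike, at sites away from the start or end of any annotated gene. They are 9.58% of the 56619 regions that the 3 peak lists form on chromosomes 1 to 19. A region was formed by joining peaks that overlap by 1 bp or more, and a member had to hold a peak of all 3 libraries with its midpoint more than 1 kb from every RefSeq gene end (build mm10). Presence in all 3 libraries and the distance to gene ends were therefore set by the choice of members and are no finding. The members were chosen by the peak calls themselves, that is by each library's signal over its input, so folds and pileups are given as description.

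The 3 chromatin immunoprecipitation (ChIP-seq) libraries were made with a Runx1 antibody, each beside its own input. The cells were GFP+ lung fibroblasts of mice of genotype Col1a2-CreERT2;mTmG. In these mice tamoxifen-activated Cre, driven by regulatory sequence of the collagen gene Col1a2, switches the mTmG reporter to green, so the sorted cells are those in which Cre had acted and their descendants, and any fibroblast that escaped labelling is missing. The groups were sham injury, 14 days after intratracheal bleomycin (D14) and 56 days after it (D56); all 3 carried the same Cre and reporter. There was 1 ChIP library per condition, without replicates, so no test between conditions was possible and no p-value is given. How many mice went into a library is not stated by the labels used here. Ranges in brackets after a share are 95% Wilson intervals, for counting error alone.

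Runx1 is a DNA-binding transcription factor that pairs with Cbfb and recognises a short core sequence, TGTGGT. RUNX proteins bind both at promoters and at sites far from them, many of which act as enhancers, and they often do so beside AP-1 and ETS factors. In mesenchymal cells RUNX factors are known for roles in matrix production and differentiation. Bleomycin is used to cause lung injury that is followed by scarring.

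Sequencing depth in ChIP was 48816721 tags for sham, 78744701 for D14 and 49669125 for D56, and the D56 input was the smallest, with 19949187 tags. The lists held 24611, 55378 and 14704 peaks on chromosomes 1 to 19. Members took up 22.6% of sham peaks, 10.4% of D14 peaks and 38.4% of D56 peaks. Almost every D56 region away from gene ends was a member, 5422 of 5786 (93.7%, 93.1 to 94.3), so the D56 list, the shortest, largely set which regions qualified. With D56 left out of the rule, 11781 regions would have qualified.

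The sequences shown first come from members that cover another annotated start of a gene. Such a start is not at the gene's outermost ends, and the member's midpoint lies more than 1 kb from those. For each of 7 genes the 250 bases before that start are given, 5′ to 3′ on the gene's strand, from RefSeq (GRCm38.p6), with the RUNX core TGTGGT or its complement ACCACA in capitals. They were chosen after their values were seen, to set members with a high fold beside members at genes of the receptor, contractile, TGF-beta and adventitial lists.

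Runx1 (chr16:92697330-92697579, minus strand): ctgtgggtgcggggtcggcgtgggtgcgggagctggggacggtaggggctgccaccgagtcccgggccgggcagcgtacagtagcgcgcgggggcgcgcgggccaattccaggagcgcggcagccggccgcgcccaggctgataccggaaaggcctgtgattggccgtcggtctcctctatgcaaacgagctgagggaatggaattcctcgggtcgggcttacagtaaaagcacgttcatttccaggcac
Srf (chr17:46556163-46556412, minus strand): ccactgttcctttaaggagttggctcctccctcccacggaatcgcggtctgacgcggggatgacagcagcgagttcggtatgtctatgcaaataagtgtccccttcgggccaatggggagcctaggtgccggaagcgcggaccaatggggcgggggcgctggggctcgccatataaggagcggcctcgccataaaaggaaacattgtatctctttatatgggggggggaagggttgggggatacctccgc
Nr3c2 (chr8:76902080-76902329, plus strand): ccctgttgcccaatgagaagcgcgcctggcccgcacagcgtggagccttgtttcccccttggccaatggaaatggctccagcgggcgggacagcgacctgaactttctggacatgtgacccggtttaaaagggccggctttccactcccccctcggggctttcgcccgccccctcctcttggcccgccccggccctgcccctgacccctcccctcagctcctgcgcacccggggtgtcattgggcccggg
Add3 (chr19:53142506-53142755, plus strand): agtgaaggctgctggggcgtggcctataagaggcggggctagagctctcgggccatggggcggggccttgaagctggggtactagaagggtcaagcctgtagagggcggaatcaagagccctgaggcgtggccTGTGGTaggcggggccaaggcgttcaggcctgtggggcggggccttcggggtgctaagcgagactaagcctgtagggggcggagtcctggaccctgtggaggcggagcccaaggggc
Rarg (chr15:102246501-102246750, minus strand): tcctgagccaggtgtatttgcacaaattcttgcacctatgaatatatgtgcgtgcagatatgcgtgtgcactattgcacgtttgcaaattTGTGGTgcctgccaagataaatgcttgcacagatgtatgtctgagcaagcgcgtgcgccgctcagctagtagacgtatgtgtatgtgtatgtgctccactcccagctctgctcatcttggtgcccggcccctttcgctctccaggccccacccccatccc
Ltbp1 (chr17:75178531-75178780, plus strand): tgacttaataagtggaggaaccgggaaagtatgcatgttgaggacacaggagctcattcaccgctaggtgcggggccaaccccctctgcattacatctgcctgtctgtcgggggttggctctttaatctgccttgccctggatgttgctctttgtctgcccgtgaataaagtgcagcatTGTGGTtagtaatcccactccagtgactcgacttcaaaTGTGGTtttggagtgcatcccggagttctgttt
Gsn (chr2:35282130-35282379, plus strand): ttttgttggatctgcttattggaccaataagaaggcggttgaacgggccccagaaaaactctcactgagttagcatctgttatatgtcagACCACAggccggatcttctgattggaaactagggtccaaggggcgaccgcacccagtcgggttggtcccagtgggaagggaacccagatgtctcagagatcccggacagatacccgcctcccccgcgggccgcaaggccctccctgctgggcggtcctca

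Of these 7 stretches, each of which lies whole inside its member, those of Runx1, Srf and Nr3c2 hold no TGTGGT on either strand. Those of Add3, Rarg and Gsn hold 1, and that of Ltbp1 holds 2. The stretches before starts of Axin2, Ankrd12 and Dcun1d4, also read but not shown, hold no TGTGGT on either strand. The 7 shown were picked, so they do not measure how common the core is at members. In the somewhat longer start windows described below, TGTGGT was in 11.3% of those overlapping members, against 16.7% of all windows. The GC content was 67.6% before the Runx1 start, 59.6% before that of Srf and 68.4% before that of Nr3c2, and 50.8% before that of Ltbp1. No match says only that these letters are not in the stretch.

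The member at the Runx1 start is the larger of the 2 that the gene holds. Runx1 is transcribed from a distal and a proximal promoter, and this member (chr16:92697150-92697897) lies 64.7 kb from the nearest gene end. Its fold enrichment, the ratio of fragment pileup to local background, was 10.0 in sham, 20.2 at D14 and 8.50 at D56. Its pileup was 109, 117 and 39. The second member (chr16:92698636-92698992) had folds of 3.63, 6.72 and 4.88. Folds and pileups are the authors' own values for each peak, scaled within each library, so they rank and describe peaks inside a library and are not levels to be compared between libraries. Runx2, Runx3 and Cbfb, the bone and lymphoid relatives and the shared partner subunit, had 0 members in the gene or the 10 kb on either side. Among the partners, Ets1, a founding ETS factor, held 3 with D14 folds of 8.52 to 24.1.

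Members at another start were a sizeable class. The start table covers every chromosome here except 18, which leaves 5231 members. Of these, 739 had their midpoint within 1 kb of another annotated start (14.1%, 13.2 to 15.1), against 1097 of 33312 other regions away from gene ends (3.29%, 3.11 to 3.49). The remaining 4492 members, called remote here, had midpoints over 1 kb from every gene end and every start in the table. A wide remote member can still cover a start, as the one over Fos does. The share at another start was larger among regions of high fold. In the highest decile of D14 fold, 37.4% of members (34.2 to 40.6) and 13.8% of the other 94 regions (8.26 to 22.2) were at another start. In the ninth decile the shares were 17.8% of members (15.9 to 19.9) and 7.72% of other regions (6.26 to 9.48). In the eighth decile the shares were 8.01% of members (6.58 to 9.73) and 5.67% of other regions (4.82 to 6.67), with intervals that overlap.

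Members at another start had higher folds than remote members in each library. Their median folds were 6.44 in sham, 14.4 at D14 and 7.51 at D56, against 5.79, 9.15 and 5.82 for remote members. Constant regions at gene ends had medians of 6.92, 16.1 and 8.15. Regions away from gene ends called in sham and D14 alone had medians of 4.36 in sham and 5.91 at D14. Members at another start also were wider (median 709 bp, against 552 bp for remote members).

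**Figure D1:**
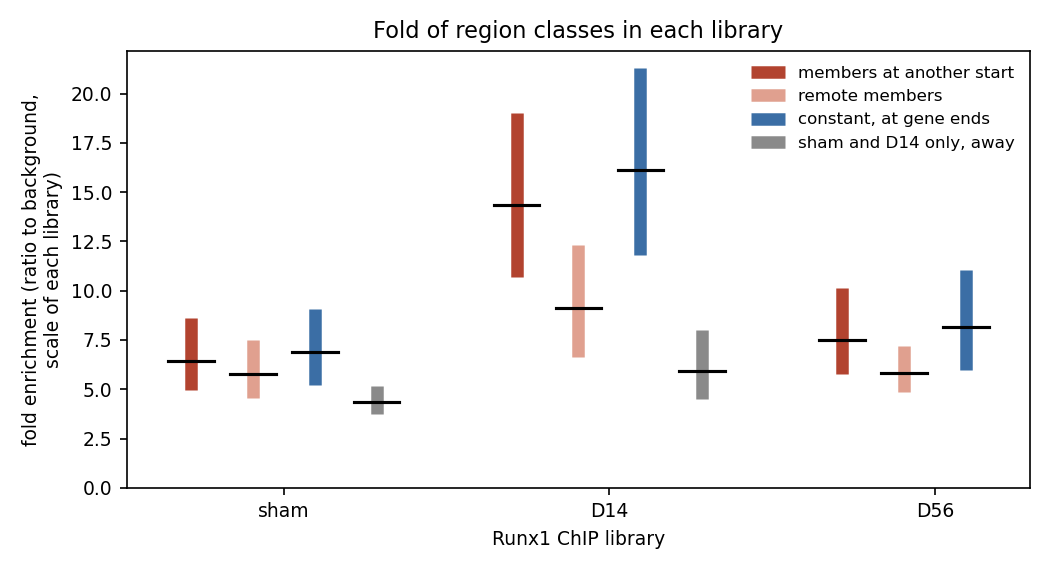
Median (black line) and interquartile range (bar) of the authors' fold enrichment for 4 classes of region in each Runx1 ChIP library; regions called in sham and D14 only have no D56 bar, and scales differ between libraries. Members at another start (D14 median 14.4) sat close to constant regions at gene ends (16.1) and above remote members (9.15).

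Within their own lists the members ranked differently. The median member stood at percentile 62.9 of the sham list by fold, 77.7 of the D14 list and 38.2 of the D56 list. The lists differ in length, so these positions are a description of each list and show no change. Members were thus well above the middle at D14 and below it at D56. The top 1000 by fold held 235 members for sham, 93 for D14 and 113 for D56. Constant regions at gene ends had a higher median fold than members in every library, so this was not particular to D56.

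The D14 fold is among the values that chose the members, so the share of regions that were constant is given by fold as a description. Away from gene ends 13.6% of regions were constant (13.2 to 13.9), against 48.4% at gene ends (47.6 to 49.1). In the highest decile of D14 fold the shares were 90.4% away (88.4 to 92.0) and 97.5% at gene ends (97.0 to 97.9). In the decile below they were 56.6% and 77.2%, and in the next 32.2% and 46.9%. In the lowest decile they were 2.22% and 1.01%. Away from gene ends, 46.0% of the 11781 regions called in sham and at D14 were also called at D56 (45.1 to 46.9), against 79.5% at gene ends (78.7 to 80.3).

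**Figure D2:**
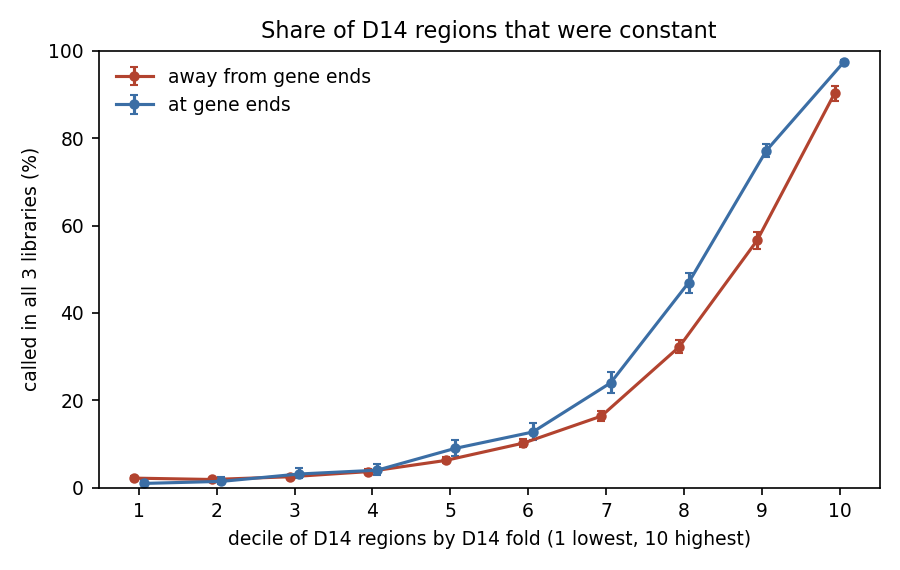
Percent of D14 regions called in all 3 libraries, by decile of D14 fold, for regions away from and at gene ends; bars are 95% Wilson intervals. Both curves climb, to 90.4% and 97.5% in the highest decile, and the curve away from gene ends is lower in the upper deciles.

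The 3 libraries placed their summits close together inside a member. The median distance between the outermost of the summits was 54 bp, with 78.6% of members within 100 bp and 93.4% within 200 bp. The rule asked for 1 bp of overlap, which already keeps summits near each other, so this is a description. For constant regions at gene ends the median was 45 bp. In 90.6% of members each library had exactly 1 peak. Members had a median width of 574 bp, against 714 bp for constant regions at gene ends and 210 bp for regions called at D14 alone, which rest on 1 library's peaks where a member spans those of 3.

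With regions at another start counted, members lay in genes slightly more often than other regions away from gene ends. The share inside a gene body was 64.8% (63.5 to 66.0), against 62.0% (61.5 to 62.5). Of remote members alone, 58.9% were inside a gene (57.5 to 60.4). Regions at another start lie inside genes by definition. Outside chromosome 18 they were 14.1% of members and 3.29% of other regions, so they raise the share of members more. Remote members leave them and chromosome 18 out, while the 62.0% keeps chromosome 18 and 1097 regions at another start. These shares are thus of unlike sets. The median distance to the nearest gene end was 8.85 kb, and 2.19% of members lay more than 100 kb away. The farthest was 545 kb from any gene end.

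Within long genes, members gathered towards the 5′ end. Of 2018 members inside a single protein-coding gene of at least 20 kb, 30.5% lay in the first 20% of the gene's length (28.5 to 32.5). Among members at another start the share was 55.9% (51.6 to 60.1), and among remote members 21.7% (19.7 to 23.8), against 22.7% (21.9 to 23.6) of regions called at D14 alone. The intervals of remote members and D14-only regions overlap there.

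**Figure D3:**
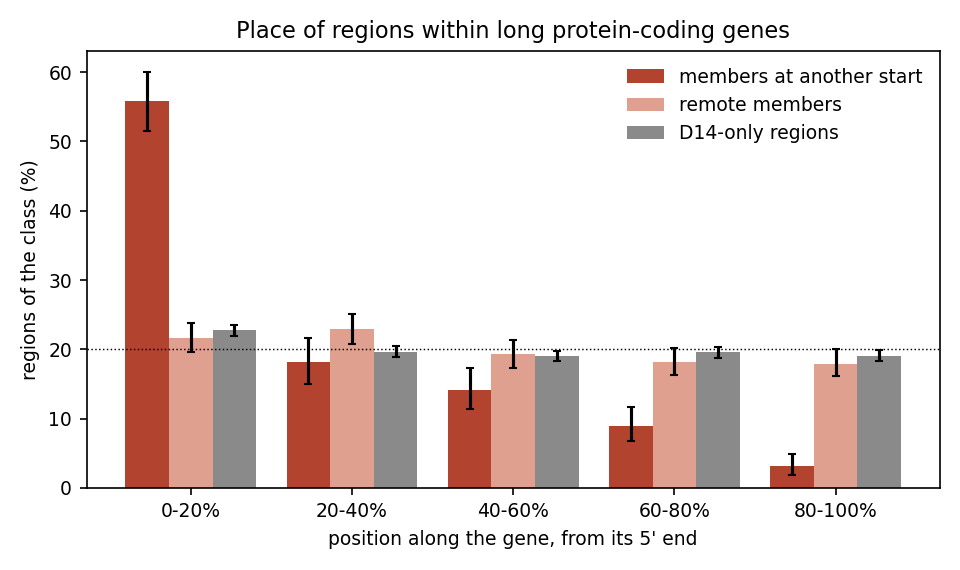
Percent of members at another start (519), remote members (1499) and regions called at D14 alone (9907) in each successive 20% of the length of the gene they lie in, from the 5′ end; bars are 95% Wilson intervals and the dotted line is an even spread of 20%. Members at another start reach 55.9% in the first 20%, and remote members stay close to 20%.

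Sequence could be read at the annotated starts only. In all, 816 start windows of 300 bases (250 before a start and 50 after) overlapped members. TGTGGT, on either strand, was in 11.3% of them (9.28 to 13.6), against 10.5% of windows at constant regions at gene ends (9.90 to 11.2) and 16.7% of all 31396 windows. The windows at members were rich in G and C, with a median of 63.0%, against 49.3% in windows outside constant regions. In the quintile of windows with the highest GC content TGTGGT was in 6.89% at members (4.71 to 9.97) and 8.15% outside constant regions (7.04 to 9.41). From the lowest quintile up, the others had 10, 11.5, 17.6 and 14.3% at members. Outside constant regions they had 20.1, 22.0, 20.3 and 17.2%. The share at members was thus lower in every quintile, with intervals that overlap in each. The lowest quintile held only 10 windows at members. The GC box GGGCGG, searched on both strands, was in 69.7% of windows at members (66.5 to 72.8), 73.9% at constant regions at gene ends (72.9 to 74.8) and 36.0% of all windows. The ETS core CCGGAAG was in 17.2% (14.7 to 19.9), 21.8% (20.9 to 22.7) and 9.004%, so both were less frequent at members than at constant regions at gene ends. The motifs were counted apart, whether or not they overlapped. Apart from start windows that overlap a remote member, as at Fos, the sequence under remote members was not analysed here.

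At D14 the members with the highest folds were mostly at another start. Among the 10 highest at D14 were the member inside Dcun1d4, a cullin neddylation gene (13.2 in sham, 44.0 at D14, 18.4 at D56), and the one inside Gatad2a, a subunit of the NuRD repressor complex (11.5, 41.0 and 12.4). The member in Add3, which encodes the cytoskeletal protein adducin, had folds of 14.1, 39.0 and 15.7, and its 250 bases carry 1 TGTGGT. Zfp41 (41.2), Ybx1 (37.8), Wdr1 (37.2), Myadm (37.0) and Vapa (36.4) were also among them. They include the Y-box protein Ybx1 and the actin-disassembly factor Wdr1. Of the 10 members, 8 of which are named here, 7 were at another start.

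The sham library had another order. Its highest member fold, 22.7, was inside Has1, a hyaluronan synthase and adventitial fibroblast marker, with 22.4 at D14 and 9.34 at D56. Coro2b, an actin-binding coronin (20.2 in sham), Ccdc85c (19.4), the polyamine regulator Azin1 (19.1) and the glycolytic regulator Pfkfb3 (19.04) followed; the members named by Coro2b, Azin1 and Pfkfb3 lay 23.1, 16.6 and 41.6 kb from those genes. Of these 5 members 4 were remote. The highest D56 fold, 27.7, belonged to a member with no protein-coding gene within 100 kb. At D56 the named members with the highest folds were inside Ccdc85c (23.4), Chd2, a chromatin remodeller (22.3), Ptprs, a receptor phosphatase (22.0), Scoc (21.2) and Mesd (20.8). Ccdc85c stood 3rd of the members in sham, 20th at D14 and 2nd at D56.

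**Figure D4:**
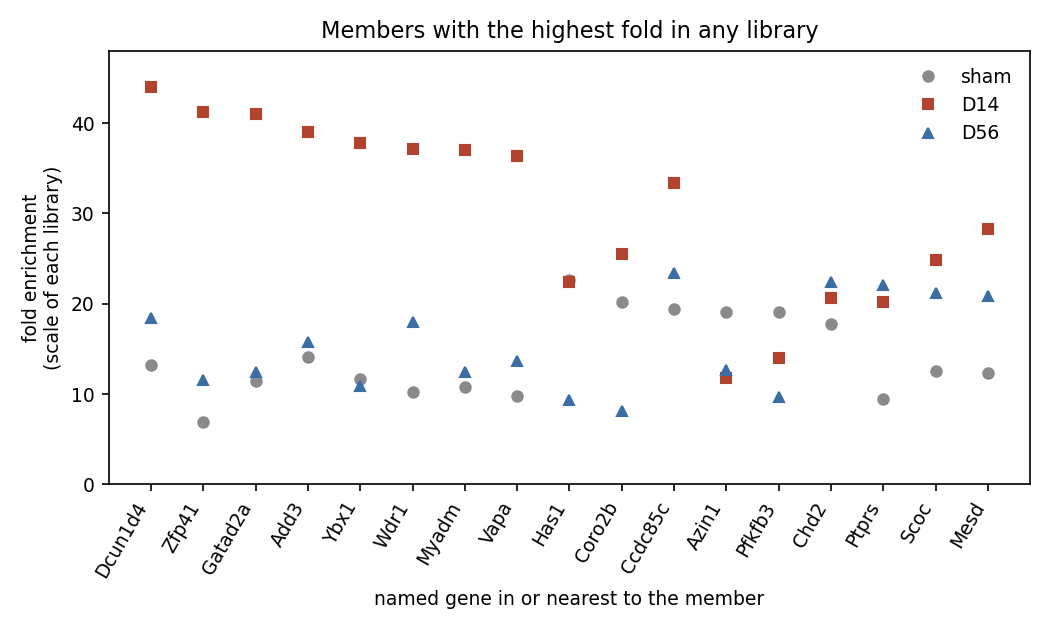
Fold enrichment in each library of 17 named members: 8 of the 10 with the highest D14 fold, the 5 with the highest sham fold, and the 5 with the highest D56 fold among members with a protein-coding gene within 100 kb, Ccdc85c being on both of these lists. The D14 folds of the first 8 run from 36.4 to 44.0.

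The order of members by fold was only partly shared. Across the 5422 members Spearman's rho, given as a description since the points share libraries, was 0.34 between sham and D14, 0.38 between sham and D56 and 0.45 between D14 and D56. By pileup it was 0.60, 0.75 and 0.68. Among members at another start rho by fold was 0.47, 0.51 and 0.54, and among remote members 0.31, 0.35 and 0.39. Of the 500 members with the highest fold in each library, 105 were shared by all 3, and 59 of those were at another start.

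Single members moved far in that order. Inside Gnb5, a G-protein subunit gene, a member stood 5199th by fold in sham (3.20) and 284th at D14 (21.0). Members inside Fam214a and Ttll1, near the kinase gene Fer and 63.0 kb from Nrep moved alike, with sham folds of 2.82 to 3.67 and D14 folds of 18.7 to 22.2. Their sham backgrounds, taken as pileup divided by fold, were 9.54 to 14.5, against a median of 7.70 over all members, and the part of background in these ranks was not tested. In the other direction a member inside Rad51b, a DNA repair gene, stood 75th in sham (13.6) and 5232nd at D14 (4.10), and one inside Tmem30c stood 401st (10.4) and 5409th (2.85). Members near Tlr5, a flagellin receptor gene, inside Dnm3, a dynamin, and near the kinase gene Pim1 had sham folds of 11.4, 11.4 and 13.1 and D14 folds of 4.36, 4.78 and 5.29. The D14 backgrounds of the members that fell were 7.76 to 18.6, against a median of 6.94 over all members. The part of background was not tested here either. Between sham and D56 the largest steps up were near Il12a (2.74 and 13.1), Fer, Psmg1, H2bc6 and Rbp7, and the largest steps down inside Bicc1, an RNA-binding protein (13.4 and 3.17), Rbfox3, Cacnb2 and Cubn and near Asb7. Those that stepped up had sham backgrounds of 12.6 to 16.7. Those that stepped down had D56 backgrounds of 4.41 to 6.56, against a D56 median of 3.02 over all members.

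A few members rested on very high background. In 11 of 5422 members (0.203%) the pileup divided by fold was over 5 times the median of some library, and in 8 of them in all 3. Their D14 pileups ran up to 1137.

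Most members stood alone. Joined across the gap commonly used to stitch enhancers, they formed 4567 groups, of which 3923 held a single member, 644 at least 2 and 137 at least 3. Groups of 2 or more held 27.6% of members. The largest held 8 members over 27.8 kb of chromosome 10 across Atp5d, Midn and Cirbp (80141069 to 80168877), a stretch that includes a subunit of the ATP synthase and the cold-inducible RNA-binding protein. Col4a2, which encodes a chain of basement membrane collagen, had 7 within the gene (chr8:11375683-11412210), with D14 folds of 5.47 to 11.9 and sham folds of 4.28 to 8.81. Another 7 lay 57.4 kb from Irf2bp2, a transcriptional co-repressor, outside genes. Groups of 6 were found over Jund and Iqcn, near Socs3, which encodes a brake on cytokine signalling, over Loxl1, over Rtn2, Fosb and Ercc1, and over Nr1d1 and Msl1.

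Genes with a member, in the body or the 10 kb on either side, numbered 3297 of 20665 protein-coding genes (16.0%). The share grew with gene length, from 2.32% in the shortest decile to 34.7% in the longest. Genes with at least 3 members numbered 269 (1.30%), and with at least 1 remote member 2386 (11.5%). Pakap, a long gene that encodes a kinase-anchoring protein, held 11, Synpo, encoding the actin-associated synaptopodin, and Gse1 9 each. Nfia, a nuclear factor of lung mesenchyme, Maml3, a Notch co-activator, Midn and Tns1, a focal adhesion tensin, held 8 each. Ctif, Rbms3 and Dlgap1 held 7 each. Midn is only 12.4 kb long, while Rbms3 spans 1057 kb.

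Gene lists were read against that background of 16.0% and against the mean share of genes of the same length. The lists hold 452 genes found on chromosomes 1 to 19, of which 178 had a member. They were chosen with earlier results of these data known, so their counts are a description.

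Nuclear receptors had members at 17 of 22 genes (77.3%, against 20.2% for genes of like length). The share was 45.5% with a gene-end distance of 5 kb, where collagen and matrix genes had 63.6%. Fewer of all protein-coding genes had a member at that distance too. Both lists stayed above the share of all protein-coding genes in each of the 20 settings described at the end. Nr4a1, an immediate-early orphan receptor, held 3 members, of which the strongest at D14 and D56 had folds of 9.63 in sham, 21.4 at D14 and 15.9 at D56. In sham the same member was the weakest of the 3, the others having 14.3 and 10.1. Its relative Nr4a2 held 2, with D14 folds of 8.22 and 18.8. Rara, a retinoic acid receptor, held 5, all of them remote, with D14 folds of 4.67 to 13.2. Nr3c1, the glucocorticoid receptor, held 2 (15.7 and 9.85 at D14). The member at the start of Nr3c2, the mineralocorticoid receptor, shown above, had folds of 11.2, 27.1 and 17.0, and that at Rarg, another retinoic acid receptor, 12.2, 18.1 and 6.79. Of the list, 12 genes had a remote member.

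AP-1 family genes had members at 10 of 14 genes (71.4%, against 13.9%), and stress and immediate-early genes at 13 of 19 (68.4%, against 10.6%). With a gene-end distance of 5 kb these shares were 28.6% and 21.1%, and with a reciprocal overlap of 50% between libraries 35.7% and 36.8%. With members counted in the gene body alone stress genes had 26.3%. Fewer of all protein-coding genes had a member under these settings too, 9.76% with the reciprocal overlap. Both lists stayed above the share of all protein-coding genes in each of the 20 settings described at the end. Jund held 5 members, and the one over the gene itself (chr8:70698243-70700302) had folds of 16.0 in sham, 19.9 at D14 and 17.1 at D56. Fos held 3, and its gene-covering member (chr12:85472950-85477009) had folds of 16.4, 10.9 and 12.1. Junb held 3 (D14 folds 9.14 to 17.2) and Bach2, a repressor of the family's sites, 4 (5.72 to 14.3). Of the stress genes, Per1, a clock gene, and Mcl1, an anti-apoptotic gene, held 3 each, and Zfp36, which encodes an mRNA-destabilising protein, 2, with sham folds of 17.1 and 14.1. A wide member can reach a gene end: 8 members hold a gene end, although their midpoints lie more than 1 kb from it, and in 330 some base lies within 1 kb of one. The widest, 9004 bp over Fosb, joined 1 sham, 11 D14 and 3 D56 peaks.

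Collagen and matrix genes had members at 14 of 22 (63.6%, against 23.2%). Beside Col4a2, the paired gene Col4a1 held 4 with D14 folds of 4.97 to 15.8. Loxl1, an elastin and collagen crosslinker, held 6: their folds were 3.85 to 12.6 in sham, 3.73 to 17.7 at D14 and 4.23 to 7.98 at D56. Col5a3 held 2, the stronger with folds of 8.37, 19.1 and 10.5. Col1a1, Col1a2, Fn1 and Lox, also on the list, had 0. Adventitial fibroblast markers had members at 9 of 18 genes, against 16.6% by length: Gsn, the actin-severing gelsolin, had 4, and Has1, Col14a1 and Dpt, which encodes dermatopontin, 2 each. The 2 in Dpt had folds of 10.0 and 8.99 in sham, 10.1 and 8.02 at D14 and 9.17 and 5.17 at D56. Alveolar fibroblast markers had members at 9 of 23 (39.1%, against 22.9%), with 3 in Spon1, a matrix protein gene. The Wilson interval of the alveolar share, 22.2 to 59.2, holds the 22.9% for genes of like length. Tcf21 and Pdgfra had 0, and a peak or its absence is no measure of a gene's expression.

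TGF-beta pathway genes had members at 10 of 21 (47.6%, against 22.7%). Constant regions at gene ends are not members. In the body or 10 kb on either side, 18 of the 21 genes had such a region, against 10028 of all 20665 protein-coding genes. A gene with 0 members can thus still hold a constant region. By role, the ligand genes Tgfb1 and Tgfb2 held 2 each and Tgfb3 0. Of the latent-form binding proteins, Ltbp1 held 4 and Ltbp2 1. The receptors Tgfbr1 and Tgfbr2 had 0, while Tgfbr3, a co-receptor, held 2. The signal transducer Smad3 held 5, all inside the gene and remote, with folds of 4.32 to 9.19 in sham, 4.39 to 11.3 at D14 and 3.86 to 5.47 at D56. Smad2 and Smad4 had 0, and the inhibitor genes Smad7 and Ski held 2 each. The 2 at Tgfb1 had D14 folds of 15.3 and 10.3. BMP pathway genes had members at 8 of 17 (47.1%, against 20.4%), among them the target genes Id3 with 2 (sham folds 14.7 and 7.69) and Id1 with 1 (6.33 in sham, 15.8 at D14, 3.34 at D56).

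Of 17 fibrotic fibroblast markers, Runx1 and Ltbp2 had a member (11.8%, 3.29 to 34.3). The interval holds both the 16.0% of all protein-coding genes and the 20.04% for genes of like length. Cthrc1, Postn, Tnc, Spp1 and Acta2 had 0. Of the same 17 genes 12 had a region away from gene ends called at D14 alone, against 8454 of all 20665 protein-coding genes (40.9%). Such regions were not particular to this list: 19 of 23 alveolar markers, 18 of 22 collagen and matrix genes and 11 of 15 endothelial markers had them. Smaller shares were seen too, as in 10 of 19 stress genes and 5 of 14 ubiquitous reference genes. The 17 fibrotic markers had a median length of 31.8 kb, against 17.5 kb over all protein-coding genes. The count of fibrotic markers with a member was above the share of all protein-coding genes under 8 of 20 settings. Assigned to the nearest gene end within 100 kb, members belonged to 5 of the 17 genes (29.4%, against 15.3% of all protein-coding genes), and with D56 left out of the rule 5 of 17 had a region (29.4%, against 25.1%).

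Endothelial markers had members at 6 of 15, against 20.7% by length, with 2 each at Erg, an endothelial ETS factor (D14 folds 20.7 and 13.0), and Plvap. The Wilson interval of the endothelial share, 19.8 to 64.3, holds the 20.7% for genes of like length. That list's level beside the fibroblast lists is given as a count, and whether endothelial cells entered the sort was not tested. Lymphocyte markers had 3 of 12, lung epithelium 3 of 17, pericyte and smooth muscle 2 of 11, myeloid 2 of 15, mesothelium 0 of 7 and genes of other organs 0 of 17, against length means of 12.2 to 19.5%.

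The other lists lay between. YAP-TEAD genes had members at 9 of 17 (52.9%, against 20.4%), including Ccn1 and Ccn2, matrix-cell signals that YAP drives, with sham folds of 6.76 and 5.54, and 5.51. Contractile and focal adhesion genes had 8 of 17 (47.1%, against 18.1%), with 3 in Actn1, an actin crosslinker, and 1 at another start of Srf, the factor that drives actin genes (7.99 in sham, 27.4 at D14, 9.84 at D56). Matrix proteases and inhibitors had 7 of 15 (46.7%, against 13.9%) and lung mesenchyme transcription factors 10 of 24 (41.7%, against 21.2%). Integrins had 6 of 13 (46.2%, against 26.1%) and growth factors and receptors 7 of 18 (38.9%, against 22.7%). The RUNX genes and partners had 6 of 16 (37.5%, against 24.4%). For integrins, growth factors and receptors, and RUNX genes and partners, the Wilson interval holds the share for genes of like length. Itgb5, an integrin that activates latent TGF-beta, held 4, as did Gli2, the hedgehog effector, and Tbx2. Wnt genes had 6 of 20 (30%, against 19.9%), cell cycle genes 5 of 16 (31.25%, against 15.5%) and inflammatory genes 5 of 20 (25%, against 13.1%). Ubiquitous reference genes had 4 of 14 (28.6%, against 12.03%) and Kruppel-like factors 3 of 13 (23.1%, against 16.6%), with 4 members in Klf13. From Wnt genes to Kruppel-like factors, each list's Wilson interval holds the share for genes of like length.

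**Figure D5:**
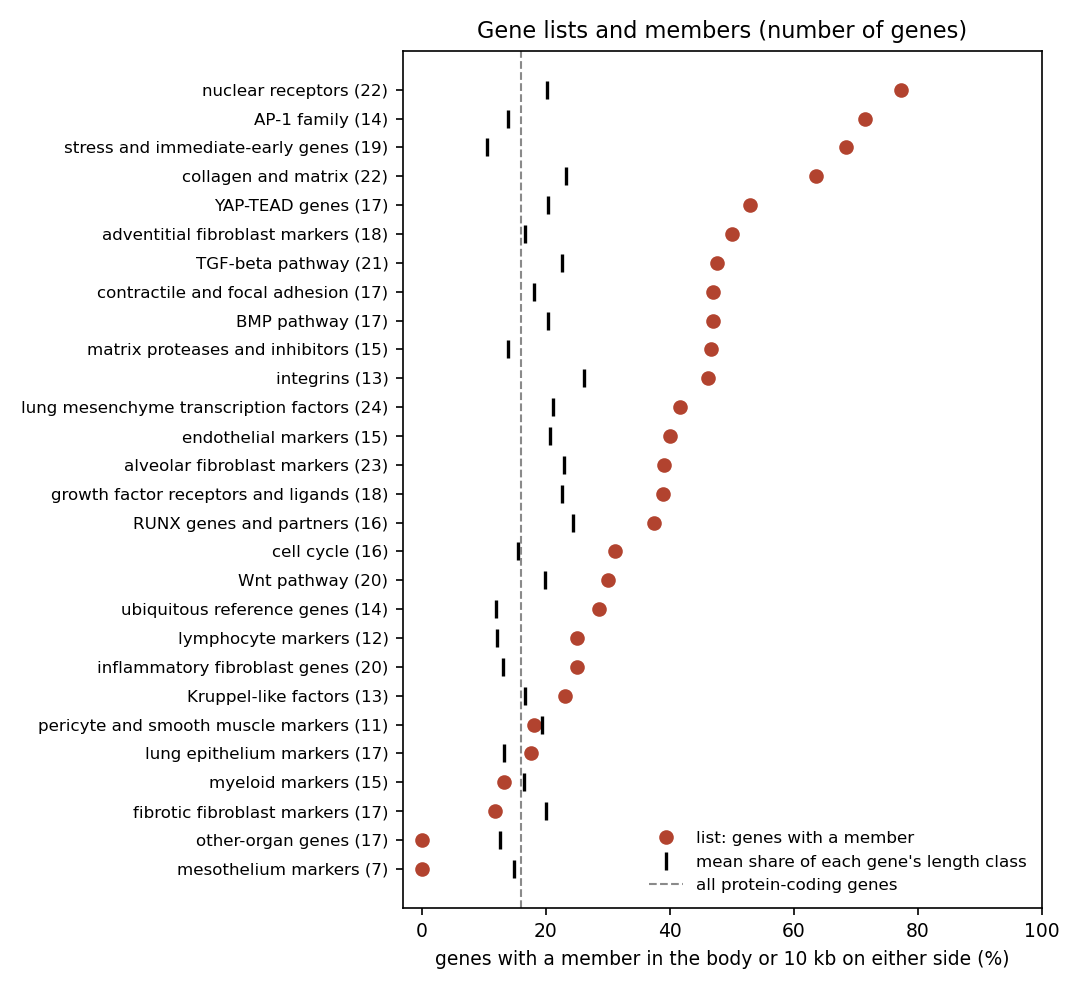
Percent of each list's genes with a member in the body or 10 kb on either side (points), beside the mean share of genes of the same length (ticks) and the 16.0% of all protein-coding genes (dashed line); the number of genes is in brackets. Nuclear receptors (77.3%) and the AP-1 family (71.4%) are farthest right, and fibrotic markers (11.8%) lie left of their tick.

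Members also lay near microRNA genes. No hairpin overlapped a member; 80 of 919 hairpins on these chromosomes other than 18 (8.71%) had one within 10 kb, at 67 members. The microRNAs shown are 7 that were chosen after their values were seen, with the seed (bases 2 to 8) in capitals, from RefSeq (GRCm38.p6). They show the seeds shared by miR-17 and miR-20a and by the let-7 family, and miR-21a and miR-199a, which are known from work on fibrosis.

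mmu-miR-17-5p: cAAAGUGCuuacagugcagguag
mmu-miR-20a-5p: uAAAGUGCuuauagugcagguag
mmu-let-7a-5p: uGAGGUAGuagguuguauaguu
mmu-let-7d-5p: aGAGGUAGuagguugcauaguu
mmu-let-7e-5p: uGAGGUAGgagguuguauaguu
mmu-miR-21a-5p: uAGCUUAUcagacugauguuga
mmu-miR-199a-5p: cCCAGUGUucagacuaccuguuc

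The hairpins of Mir17 and Mir20a, whose products share the seed AAAGUGC, lie 1.14 and 1.62 kb from the same member (chr14:115041803-115042535), which had folds of 4.08 in sham, 11.4 at D14 and 7.64 at D56. Of the hairpins whose products carry the let-7 seed GAGGUAG, Mirlet7a-1, Mirlet7f-1 and Mirlet7d share 1 member 7.29 to 9.44 kb away (folds 14.9, 20.9 and 12.2). Mirlet7e lies 1.36 kb from the member beside Has1 (6.45, 19.5 and 6.74). Mir21a, whose product is raised in many fibrotic tissues, lies 2.34 kb from a weak member with folds of 4.23, 4.41 and 3.66. Mir199a-2 lies 9.82 kb from the Dnm3 member named above, which ranked far lower at D14 than in sham (11.4, 4.78 and 7.24).

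The members nearest the 1 kb limit had midpoints 1002 bp from a gene end, and among them 1 inside Gapdh, the glycolytic reference gene, had folds of 10.97, 15.1 and 11.6. Another was nearest Zfp652 (4.98, 11.4 and 4.07). Just outside the limit were constant regions 87.8 kb from Reep3 (5.55, 13.2 and 5.97) and by Ccin (4.38, 12.4 and 6.41).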

How the data were processed

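Peak lists of 3 Runx1 ChIP libraries were analysed, and the inputs entered through them as background. The submitters' processing notes name BWA, SAMtools, MACS2 and mm10. The caller was MACS 2.0.10.20120913, run per library with the matching input at a q-value limit of 0.01, per the file headers. Alignment settings are not stated by the labels. The deposited lists give a pileup (fragment signal at the summit), −log10 p-values and −log10 q-values, and a fold, the ratio of pileup to local background. The authors made these for each library apart.

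Peaks of chromosomes 1 to 19 were joined at 1 bp of overlap and set beside RefSeq genes and starts (GRCm38.p6), with Python 3.11.15, pandas 2.3.3 and SciPy 1.17.1. A member takes the value of its strongest peak in each library. The implied background is pileup divided by fold. The steps were tested on simulated data. Groups came from the sample titles. With 1 library per condition there was no test.

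The members and gene lists were chosen with earlier results of these data known. Named genes are those nearest (within 100 kb) to the 10 members of highest D14 fold and the 5 of highest sham and D56 fold that have such a gene, those with most members or in the largest groups, up to 4 per list by number of members, the RUNX genes and Cbfb, and those at the largest shifts of rank and at the 1 kb limit. Some genes that this rule names are not reported here. Other genes, among them those named with 0 members, were chosen after their values were seen. Of 458 list genes 452 were matched, the other 6 being on chromosome X. Alternatives changed the overlap, the thresholds, the list length, the gene-end distance, the gene annotation and the assignment to genes. A search for motifs at summits needs the genome sequence and was not run.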

Additional observations from a re-analysis of the deposited data

Results flagged for a closer look

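Chromosome X, outside the 19 chromosomes used, held 87 regions by the same rule, of 942 joined regions (9.24%), with median folds of 6.69 in sham, 11.7 at D14 and 6.41 at D56. It was set apart because it lies outside the regions the report compares.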

How the results depend on the processing

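With 1 library per condition no value has a replicate error, and whether the D56 input, which had the fewest tags, limited which members were called was not tested. Values are given as members, percent inside a gene, groups of 2 or more, genes with a member, listed genes with a member, median summit distance and Spearman's rho of fold between sham and D14, against 5422, 64.8%, 644, 3297, 178, 54 bp and 0.34. A reciprocal overlap of 50% left 2867 members, 233 groups, 2016 genes, 115 listed genes, 51 bp and a rho of 0.43. A fold of 5 or more left 2735 members, 68.0% inside genes, 219 groups, 2030 genes, 50 bp and a rho of 0.28. Lists cut to the length of the shortest, by p, gave 3068 members, 69.8%, 259 groups, 48 bp and a rho of 0.23, and by fold 2607 members, 70.0%, 172 groups, 2099 genes, 48 bp and a rho of 0.24. A gene-end distance of 5 kb gave 3513 members, 61.3%, 366 groups, 1595 genes, 101 listed genes and a rho of 0.30, and one of 2.5 kb 62.2% and a rho of 0.31. The summit distance was 52 bp with summits within 200 bp, 51 bp at a −log10 q of 5 or more, where rho was 0.31, and 56 bp with peaks under 500 bp apart joined. Genes with a member in the body alone numbered 2180, and with 50 kb on either side 6648. A joining gap of 5 kb gave 422 groups. By pileup in place of fold the median member stood at percentile 80.2 of the D14 list and rho was 0.60, and by −log10 q at percentile 79.6. Stricter alternatives keep fewer regions by construction; the cause of the changes in rho was not tested.

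Among alternatives chosen after seeing the data, leaving out members at another start (and chromosome 18) gave 58.9% inside genes, 56 bp and a rho of 0.31, and leaving the D56 list out of the rule gave 11781 members, 1964 groups and 5192 genes. Over the 20 settings that give a count per list, nuclear receptors and AP-1 genes had a share above that of all protein-coding genes in 20, and fibrotic markers in 8. Most other lists, endothelial markers among them, were also above it in 20, and ubiquitous reference genes in 18. No paired analysis was possible because each condition has 1 ChIP library and no result comes from a test.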
